A study of Mus musculus with 12 samples.

Results

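The projection neurons of the striatum were followed in perihematomal tissue through 9 genes that mark them, namely *Drd1*, *Drd2*, *Adora2a*, *Ppp1r1b*, *Pde10a*, *Rgs9*, *Penk*, *Tac1* and *Pdyn*. The genes were chosen by symbol from the 54833 in the table, each in a single row, and all 9 passed the filter on low counts. RNA-seq libraries came from the ipsilateral caudate putamen of male wild-type C57BL/6 mice, 24 h after an injection into the striatum of type IV collagenase, which causes intracerebral hemorrhage (ICH), or after sham surgery. Sham and ICH surgery at 2 ages, 8 to 10 weeks (young) and 20 to 22 months (aged), gave 4 groups of 3 libraries. Each library pooled tissue of 2 or 3 mice, so the spread given here is that between pools. The tissue was dissected by hand around the hematoma, and in tissue samples fewer cells of a type and less RNA per cell cannot be told apart. Depth was 28410896 to 37785160 counts per library. Levels are given as CPM, counts scaled to the TMM-normalized library size, and between genes as FPKM, which is also divided by transcript length.

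Projection neurons are the main cell type of the striatum. They are GABAergic, receive glutamate from cortex and thalamus and dopamine from the midbrain, and fall into a direct class, which carries the D1 dopamine receptor (*Drd1*) together with substance P (*Tac1*) and dynorphin (*Pdyn*), and an indirect class, which carries the D2 receptor (*Drd2*), the adenosine 2A receptor (*Adora2a*) and enkephalin (*Penk*). In both classes the receptors act through adenylyl cyclase and cAMP. DARPP-32 (*Ppp1r1b*), an inhibitor of protein phosphatase 1 when phosphorylated by protein kinase A, the phosphodiesterase *Pde10a*, which breaks down cAMP and cGMP, and *Rgs9*, which speeds the switching off of G proteins, are shared by both. The hematoma of the collagenase model lies among these cells, and the question was how far the levels of their genes differed after ICH, and how far they varied between libraries of the same group.

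In GRCm38 coordinates (GENCODE annotation), the genes lie on 8 chromosomes and all are protein coding. *Drd1* is at chr13:54051183-54055705 (minus strand), *Drd2* at chr9:49340627-49408177 (plus), *Adora2a* at chr10:75316877-75334784 (plus), *Ppp1r1b* at chr11:98348404-98357796 (plus), *Rgs9* at chr11:109225355-109298129 (minus), *Pde10a* at chr17:8525372-8986648 (plus), *Penk* at chr4:4133531-4138819 (minus), *Tac1* at chr6:7554879-7565834 (plus) and *Pdyn* at chr2:129686565-129699844 (minus). RefSeq promoter windows of 250 bases before to 50 bases after a start (GRCm38.p6) were found for 6 of the 9 genes, with 9 windows in all. They are shown for the receptors of the 2 classes, for *Pde10a*, the gene that met the criteria below, and for *Tac1*, the peptide whose window holds the core TGACG of the cAMP response element. Capitals mark TGACG and the GC box GGGCGG, on either strand. The windows are chr13:54055609-54055908 (minus strand) for *Drd1*, chr9:49340153-49340452 (plus) for *Drd2*, chr17:8801495-8801794 (plus) for *Pde10a* and chr6:7554811-7555110 (plus) for *Tac1*.
Drd1: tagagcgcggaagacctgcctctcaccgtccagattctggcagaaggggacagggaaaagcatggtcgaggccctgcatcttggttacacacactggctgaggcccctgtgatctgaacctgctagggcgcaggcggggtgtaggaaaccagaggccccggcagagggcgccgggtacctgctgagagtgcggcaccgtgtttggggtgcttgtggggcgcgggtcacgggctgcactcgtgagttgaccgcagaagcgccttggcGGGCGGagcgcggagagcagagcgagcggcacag
Drd2: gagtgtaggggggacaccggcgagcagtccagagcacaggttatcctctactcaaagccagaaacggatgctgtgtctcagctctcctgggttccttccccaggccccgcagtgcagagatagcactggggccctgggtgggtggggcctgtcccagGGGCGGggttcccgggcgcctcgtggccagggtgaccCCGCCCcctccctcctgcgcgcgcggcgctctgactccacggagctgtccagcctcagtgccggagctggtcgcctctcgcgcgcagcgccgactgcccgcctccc
Pde10a: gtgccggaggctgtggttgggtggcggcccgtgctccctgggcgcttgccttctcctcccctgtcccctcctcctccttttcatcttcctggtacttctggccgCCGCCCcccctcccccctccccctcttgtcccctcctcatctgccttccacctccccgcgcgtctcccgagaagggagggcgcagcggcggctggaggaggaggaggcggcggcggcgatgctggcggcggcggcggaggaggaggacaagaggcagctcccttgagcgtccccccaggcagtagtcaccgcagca
Tac1: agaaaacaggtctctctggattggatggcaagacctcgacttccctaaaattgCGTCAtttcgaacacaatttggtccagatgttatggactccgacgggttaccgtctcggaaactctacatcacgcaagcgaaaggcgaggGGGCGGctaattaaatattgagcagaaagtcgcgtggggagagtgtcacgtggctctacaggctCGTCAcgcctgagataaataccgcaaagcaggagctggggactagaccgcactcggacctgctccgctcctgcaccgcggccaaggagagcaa

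The full element TGACGTCA was in 0 of the 9 member windows and in 1.79% of all 32851 windows. Its core TGACG, which the full element contains, was in 1 member window, that of *Tac1*, at 2 places, and in 20.8% of all windows. A GC box was in 7 of the 9 member windows, those of *Drd1*, *Drd2*, *Pde10a*, *Rgs9* and *Tac1*, and in 35.7% of all. TATAAA was found in the window of *Rgs9* and in 13.6% of all. A match describes letters, not binding.

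All 9 genes were read in every library, with 197 to 31489 counts. Compared per length in young sham mice, the peptide precursor *Penk* (178.9 ± 58.2 FPKM, SD, n = 3) and *Ppp1r1b* (138 ± 47) had the highest levels and overlapped each other. *Pde10a* followed at 48.6 ± 14.1 FPKM. *Adora2a* (26.5 ± 11), *Drd2* (25 ± 9.84), *Drd1* (24.9 ± 7.48), *Rgs9* (23.8 ± 5.72), *Pdyn* (18.8 ± 4.71) and *Tac1* (17.4 ± 6.32) came next, with neighbours that did not differ beyond their spread. In aged sham mice *Penk* (170.3 ± 60.8) and *Ppp1r1b* (142.7 ± 40.2) again stood highest, ahead of *Pde10a* (47.2 ± 10.8).

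Of the 2 dopamine receptors, *Drd1* was at 125.9, 85.5 and 71.1 CPM in the young sham libraries (replicates 1, 2 and 3, in this order throughout) and at 51.4, 18.2 and 77.4 in the young ICH libraries. In aged mice it was at 111.2, 128 and 65.8 CPM in sham libraries and at 14.1, 92.9 and 37.3 in ICH libraries. Young ICH replicates 1 and 2 and aged ICH replicates 1 and 3 were thus below every sham library, whereas young ICH replicate 3 and aged ICH replicate 2 lay among them. *Drd2* stood at 96.7, 52.3 and 50.6 CPM in young sham, 34.1, 11.8 and 51.1 in young ICH, 73.1, 80.3 and 44.2 in aged sham and 5.49, 59.6 and 17.9 in aged ICH libraries. Its sham and ICH libraries overlapped at both ages.
The adenosine receptor gene *Adora2a*, which is paired with *Drd2* in the indirect class, ranged from 61 to 125.2 CPM in young sham, 16.1 to 66.7 in young ICH, 56.5 to 106.5 in aged sham and 7.86 to 70.1 in aged ICH libraries, and its groups also overlapped.

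*Pde10a* was at 870.1, 555.4 and 529.1 CPM in young sham and at 307.2, 147.3 and 400.4 in young ICH libraries. In aged mice the values were 727.8, 671.8 and 449.4 CPM in sham and 76.5, 414.7 and 139.8 in ICH libraries. Every ICH library thus lay below every sham library, over both ages. This held for 1 of the 9 genes and for 6.26% of all 21495 genes tested. Within young mice the ICH libraries lay below all sham libraries for 3 of the 9 genes, *Pde10a*, *Rgs9* and *Pdyn* (16.5% of all genes), and within aged mice for 1, *Pde10a* (17.3% of all genes).
The phosphatase inhibitor gene *Ppp1r1b* was at 587.8, 343.7 and 334.4 CPM in young sham, 267, 136.9 and 399.5 in young ICH, 448.8, 533 and 291.4 in aged sham and 98.8, 448.7 and 194.3 in aged ICH libraries, and its groups overlapped at both ages. *Rgs9* ranged from 132.1 to 202.6 CPM in young sham, 35.5 to 121.4 in young ICH, 110.7 to 207 in aged sham and 16.5 to 147.6 in aged ICH libraries.

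Among the peptides, *Penk* ranged from 231.3 to 418.4 CPM in young sham, 40.1 to 258.7 in young ICH, 196.3 to 395.5 in aged sham and 52.2 to 297.5 in aged ICH libraries. *Tac1* ranged from 45.1 to 87.3, 9.05 to 54.4, 55.6 to 118.2 and 8.64 to 76.9 CPM in the same order of groups. Its young ICH replicates 1 and 3, at 54.4 and 48.2, lay among the young sham libraries. Aged ICH replicate 2, at 76.9, lay among the aged sham libraries. The dynorphin gene *Pdyn* was at 73.2, 48.8 and 48.3 CPM in young sham, 42.3, 21.9 and 40.4 in young ICH, 54.4, 89.5 and 47 in aged sham and 21.3, 68 and 50.6 in aged ICH libraries. Young ICH replicate 2 and aged ICH replicate 1 held the lowest values of *Pdyn*, while aged ICH replicates 2 and 3 lay among the sham libraries.

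**Figure D1:**
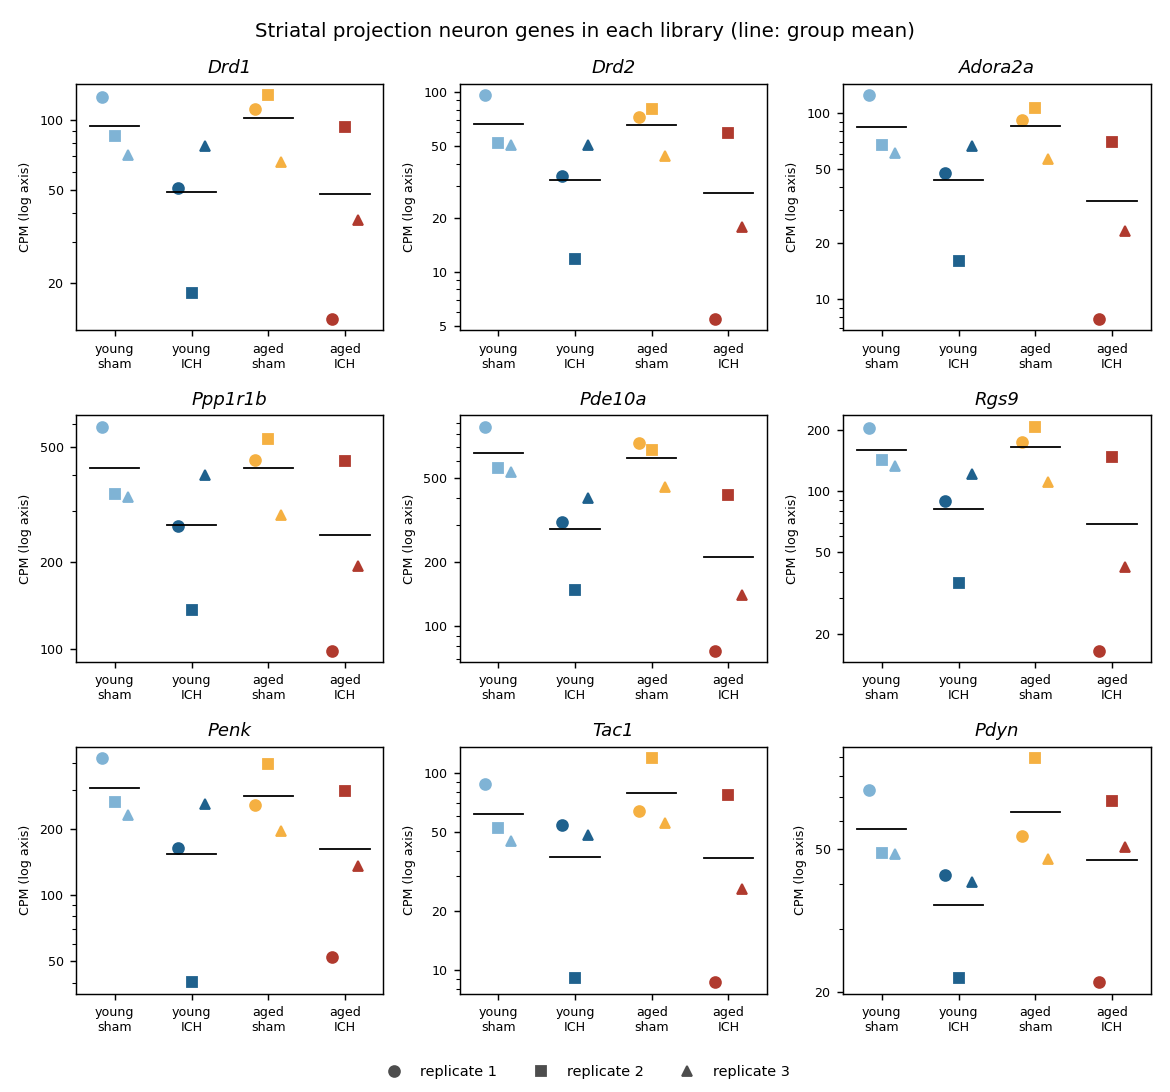
CPM (log axis) of each of the 9 genes in every library, by group, with symbols for the replicate number and a line at the group mean. *Pde10a* is the gene whose ICH libraries (76.5 to 414.7 CPM) all lie below its sham libraries (449.4 to 870.1 CPM), and aged ICH replicate 1 is the lowest of its group in all 9 panels.

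The libraries of a group kept nearly the same order for all 9 genes. In young sham mice replicate 1 was highest and replicate 3 lowest for 9 of 9 genes. Young ICH replicate 2 was the lowest of its group for all 9, and replicate 3 the highest for 7, the exceptions being *Tac1* and *Pdyn*, which were highest in replicate 1. Aged sham replicate 3 was lowest for all 9 and replicate 2 highest for 8, the exception being *Pde10a*. Aged ICH replicate 2 was highest and replicate 1 lowest for all 9. The highest library of a group exceeded the lowest by a median over the 9 genes of 1.77-fold in young sham, 4.15-fold in young ICH, 1.88-fold in aged sham and 6.58-fold in aged ICH mice, up to 10.8-fold for *Drd2* in aged ICH. Over the 10746 genes with a mean of at least 10 CPM, the same median was 1.12-, 1.17-, 1.12- and 1.13-fold. The spread within each group was therefore several times that of the typical gene, in sham mice as well as after ICH.

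Other gene lists showed which transcripts varied with the 9 genes from library to library. Levels of a list are geometric means of CPM over its members. The 9 genes were at 111.2 to 195.7 CPM in young sham, 30 to 111.1 in young ICH, 102.3 to 191.1 in aged sham and 20.8 to 136.6 in aged ICH libraries. The list of 17 receptor and cAMP signaling genes was highest and lowest in the same library as the 9 genes in 4 of 4 groups, as were the 11 transcription factors of projection neurons, 8 other striatum-enriched genes, the 3 GABAergic genes and 9 interneuron markers. Markers of cortical neurons went the other way. The 9 cortical genes were lowest in the library with the highest level of the projection neuron genes in 4 of 4 groups, and highest in the library with the lowest level in 3 of 4. In young ICH mice they stood at 74.3, 100.6 and 53.8 CPM and in aged ICH mice at 79.1, 52.8 and 78.5, against 85, 30 and 111.1 and 20.8, 136.6 and 52.8 CPM for the 9 projection neuron genes. None of the cortical genes was absent from a library, and the vesicular glutamate transporter *Slc17a7*, their most abundant member, was at 513.9 to 1001 CPM. The 10 general neuronal genes were also lowest where the projection neuron genes were highest in 4 of 4 groups, and highest where they were lowest in 1 of 4. The 7 myelin genes were highest where the projection neuron genes were highest in 4 of 4 groups, but lowest where they were lowest in only 1 of 4. The order of the lists was noted after the values were seen, and the part of cortical tissue or white matter in the spread of the 9 genes was not tested further.

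Some libraries also carried markers of other neighbouring tissue. The choroid plexus gene *Ttr*, which encodes transthyretin, reached 3651 CPM in young ICH replicate 3 and 1423 and 1810 in aged ICH replicates 1 and 2, against 5.26 to 420.3 in the others. These 3 libraries include the highest young ICH library of the 9 genes and both the lowest and the highest of aged ICH, so that high *Ttr* came with both high and low levels of the 9 genes. The 10 choroid plexus and ependyma genes together summed to 4120, 1569 and 1997 CPM in these libraries and to 20.8 to 507.2 in the others. Of the 4 thalamic markers, *Tnnt1* was at 25.1 CPM in young ICH replicate 1 and 1.55 to 5.86 elsewhere, and *Slc17a6* at 92 against 22 to 46.6. *Shox2* was near 0 in some libraries and not in others of the same group, at 13.1, 0.159 and 0.099 CPM in young sham, 30.9, 0.133 and 10.5 in young ICH, 0.0993, 11.8 and 10.3 in aged sham and 3.62, 8.63 and 0.346 in aged ICH libraries. *Calb2* was at 21.5 CPM in young ICH replicate 1 and 5 to 11.2 elsewhere. The thalamic list was highest where the 9 genes were highest in 3 of 4 groups and lowest where they were lowest in 2, and its part in their spread was not tested. The 10 general neuronal genes varied little, from 444.3 to 646.1 CPM over all 12 libraries, and *Rbfox3*, which encodes the neuronal marker NeuN, from 239.8 to 309.1.

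**Figure D2:**
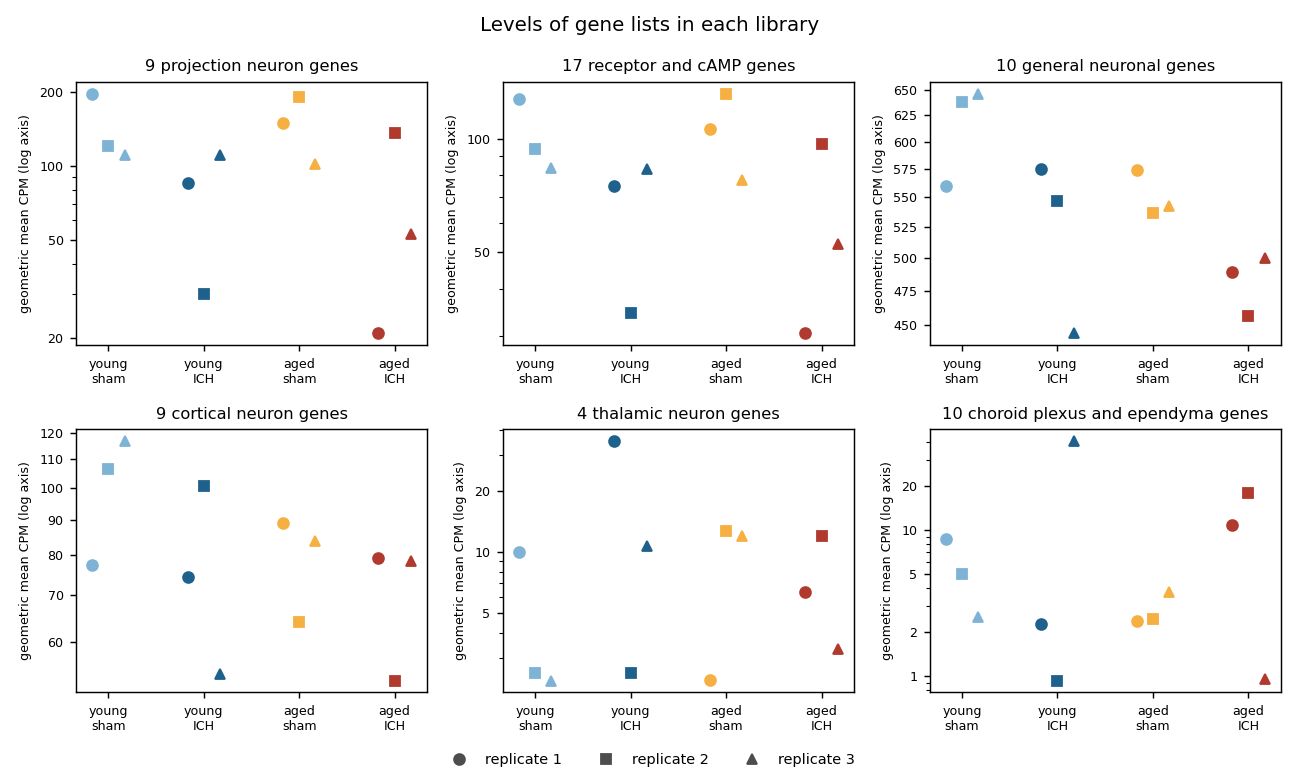
Geometric mean CPM (log axis) of 6 gene lists in every library, by group, with symbols for the replicate number. The projection neuron and the receptor and cAMP genes share their order within each group, the cortical genes are lowest where the projection neuron genes are highest in 4 of 4 groups, and the choroid plexus genes are high in young ICH replicate 3 and aged ICH replicates 1 and 2.

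After ICH all 9 genes had lower fitted means in young mice, with log2FC from −1.19 (*Pde10a*) to −0.66 (*Ppp1r1b*). Only *Pde10a* met the criteria of a downregulated DEG (FC < 0.67 and unadjusted *P* under 0.05), with a log2FC of −1.19 ± 0.53 (SE), or 0.437-fold of sham (adjusted *P* = 0.137, edgeR quasi-likelihood test). This is 1 of 9 genes, where 3.49% of all genes tested met the criteria in this direction. At an adjusted *P* under 0.05, which 9.23% of all genes reached as lower, the count was 0 of 9 with edgeR, DESeq2 and limma, and 1 of 9 was under an unadjusted 0.05 with each. *Drd1* (−0.94 ± 0.60), *Drd2* (−1.04 ± 0.68), *Adora2a* (−0.96 ± 0.65), *Rgs9* (−0.95 ± 0.63), *Penk* (−0.98 ± 0.64), *Tac1* (−0.73 ± 0.71), *Pdyn* (−0.70 ± 0.39) and *Ppp1r1b* (−0.66 ± 0.50) did not pass, with adjusted *P* of 0.235 to 0.515. The median log2FC of the 9 was −0.95, beside 0.02 for all genes tested. The number of calls changed with single libraries. It was 0 without any of young sham replicates 1 or 2, young ICH replicates 1 or 2 or aged sham replicates 1 or 2, and 2 without young ICH replicate 3 (with *Penk*) or aged ICH replicate 1 (with *Pdyn*). The log2FC of *Pde10a* stayed between −1.52 and −0.87 over these fits, and removing a library of aged mice left it at −1.19 and moved its *P* alone, down to an adjusted *P* of 0.041 without aged ICH replicate 2. Over the same fits the log2FC ran from −1.11 to −0.26 for *Tac1*, from −1.06 to −0.33 for *Ppp1r1b*, from −0.86 to −0.45 for *Pdyn* and from −1.58 to −0.52 for *Penk*. *Drd1* (−1.43 to −0.54), *Drd2* (−1.53 to −0.64), *Adora2a* (−1.41 to −0.56) and *Rgs9* (−1.35 to −0.59) moved by similar amounts.

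In aged mice the 9 genes again had lower fitted means after ICH, from −1.55 (*Pde10a*) to −0.45 (*Pdyn*) in log2FC. *Pde10a* alone met the criteria, with a log2FC of −1.55 ± 0.53, or 0.341-fold of sham (adjusted *P* = 0.0772, edgeR). Again 1 of 9 genes compares with 2.82% of all genes tested. No gene of the 9 reached an adjusted *P* under 0.05 with edgeR, DESeq2 or limma, where 6.15% of all genes did as lower, and 1, 1 and 4 were under an unadjusted 0.05 with these tools. The remaining genes were *Adora2a* (−1.34 ± 0.66), *Drd2* (−1.26 ± 0.69), *Rgs9* (−1.26 ± 0.63), *Tac1* (−1.10 ± 0.71), *Drd1* (−1.08 ± 0.60), *Penk* (−0.80 ± 0.64), *Ppp1r1b* (−0.78 ± 0.50) and *Pdyn* (−0.45 ± 0.39), with adjusted *P* from 0.208 to 0.485. The median over the 9 was −1.10, beside 0.00 for all genes. A single library set the count. Without aged ICH replicate 2, in which all 9 genes were highest, 8 of 9 genes met the criteria, beside 4.98% of all genes as lower, with log2FC down to −2.51. In that fit 6 of 9 reached an adjusted *P* under 0.05, beside 6.88% of all genes as lower. Without aged ICH replicate 3 the count meeting the criteria was 0. Leaving out single libraries moved the log2FC of *Pdyn* from −0.83 to −0.10, that of *Penk* from −1.59 to −0.38 and that of *Ppp1r1b* from −1.53 to −0.40. The ranges were −1.99 to −0.64 for *Drd1*, −2.50 to −0.77 for *Drd2*, −2.46 to −0.87 for *Adora2a*, −2.48 to −0.79 for *Rgs9*, −2.21 to −0.63 for *Tac1* and −2.51 to −1.15 for *Pde10a*.

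The counts also changed when libraries with choroid plexus transcripts were left out. Those libraries include the ICH library highest in the 9 genes at each age, and in aged mice also the lowest. Taking out the highest ICH library shifts the counts by itself, and the part of choroid plexus tissue was not tested. Without the 3 libraries highest in *Ttr*, which leaves 2 young ICH libraries and 1 aged ICH library, 8 of 9 genes met the criteria in young mice, all but *Tac1*, beside 4.0% of all genes as lower. In aged mice 6 met them, namely *Drd1*, *Drd2*, *Adora2a*, *Ppp1r1b*, *Pde10a* and *Rgs9*, beside 3.97% of all genes. The fitted log2FC then ran from −1.57 to −0.82 in young and from −2.13 to −0.32 in aged mice, and the lone aged ICH library is assumed to vary like the other groups. At an adjusted *P* under 0.05 the counts were 1 (*Pde10a*) and 0, beside 5.2% and 0.791% of all genes as lower.

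A fit with the level of other striatal genes as a covariate asked how far the 9 genes differed between ICH and sham at a given level of that covariate. The covariate was the mean log2 CPM of 21 genes from the receptor and cAMP list and the striatum-enriched list, chosen after the values were seen. It stood at 7.22 to 7.75 in young sham, 6.01 to 7.12 in young ICH, 7.02 to 7.61 in aged sham and 5.62 to 7.25 in aged ICH libraries. It was thus itself lower after ICH, and the fit removes what the 9 genes share with it whatever its source. Without the covariate the median log2FC of the 9 genes was −0.95 in young and −1.10 in aged mice. Those of the receptor and cAMP list were −0.68 and −0.79, and those of the striatum-enriched list −0.82 and −0.85. The fit with the covariate gives each gene its own slope on it, from the spread within groups. A positive difference is therefore not a rise relative to the other striatal genes. Under this fit the SE shrank to 0.08 to 0.29 in young mice and 8 of 9 fitted differences turned positive, from 0.063 (*Pdyn*) to 0.61 (*Tac1*). *Ppp1r1b* (0.35 ± 0.08, adjusted *P* = 0.0144) and *Adora2a* (0.37 ± 0.10, adjusted *P* = 0.0261) were higher at a given level of the covariate, as were 7.55% of all genes at an adjusted *P* under 0.05. *Pde10a* remained at −0.15 ± 0.10 (adjusted *P* = 0.354). In aged mice 7 of 9 turned positive, *Ppp1r1b* again passed as higher (0.35 ± 0.08, adjusted *P* = 0.0454), and *Pde10a* passed as lower (−0.48 ± 0.11, adjusted *P* = 0.0377), beside 1.96% of all genes as higher and 2.52% as lower. *Penk*, at 0.66 ± 0.25 (adjusted *P* = 0.141), was the only gene of the 9 that met the criteria in this fit, as higher in aged ICH mice, beside 6.24% of all genes.

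**Figure D3:**
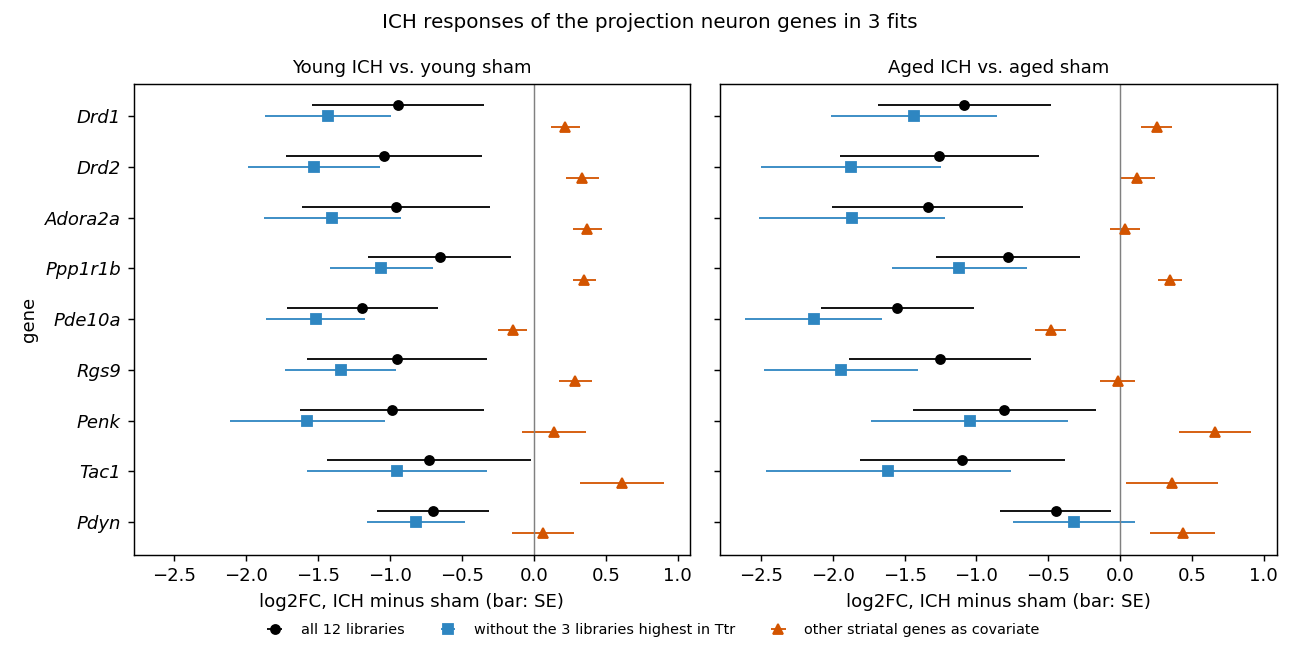
Log2FC of ICH minus sham (x axis; bars, SE) of the 9 genes in young and aged mice, fitted on all 12 libraries, without the 3 libraries highest in *Ttr*, and with the mean level of 21 other striatal genes as a covariate. All 18 differences are below 0 in the first 2 fits, and with the covariate *Pde10a* is below 0 at both ages while *Ppp1r1b* is above.

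Relative to the other 8 genes in the same library, the members differed in how far they were carried down. This ratio is the log2 CPM of a gene minus the mean log2 CPM of the other 8, and is given without a test, since the genes it singles out were picked from it. The ratio of a gene rises when the other 8 fall, and the share of all genes that would separate in this way was not computed. *Ppp1r1b* was at 1.78, 1.69 and 1.79 in young sham and 1.86, 2.46 and 2.08 in young ICH libraries. In aged mice it was at 1.78, 1.66 and 1.70 in sham and 2.52, 1.93 and 2.11 in ICH libraries. It was the only gene of the 9 whose 6 ICH libraries all lay on 1 side of the 6 sham libraries, here above. *Pde10a* moved to lower ratios, with means of 2.47 ± 0.06 (SD, n = 3) in young sham, 2.25 ± 0.29 in young ICH, 2.34 ± 0.27 in aged sham and 1.83 ± 0.26 in aged ICH libraries, and overlapped at both ages. *Pdyn* was at −1.38 ± 0.23 in aged sham and −0.39 ± 0.65 in aged ICH libraries with no overlap, and its highest ratios were those of aged ICH replicates 1 and 3 (0.034 and −0.068), the aged ICH libraries with the lower levels of the 9 genes. *Penk* was also above in aged ICH (1.43 ± 0.15 against 1.04 ± 0.16), and *Adora2a* (−1.33 ± 0.25 against −0.90 ± 0.10) and *Rgs9* (−0.20 ± 0.28 against 0.17 ± 0.07) were below. For *Rgs9* the gap was slight, with aged ICH replicate 2 at 0.1256 and aged sham replicate 3 at 0.1283. In young mice these 3 genes overlapped between sham and ICH, with differences of −0.26 for *Penk*, −0.045 for *Adora2a* and −0.031 for *Rgs9*. The group means of *Drd1* lay between −0.74 and −0.61.

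**Figure D4:**
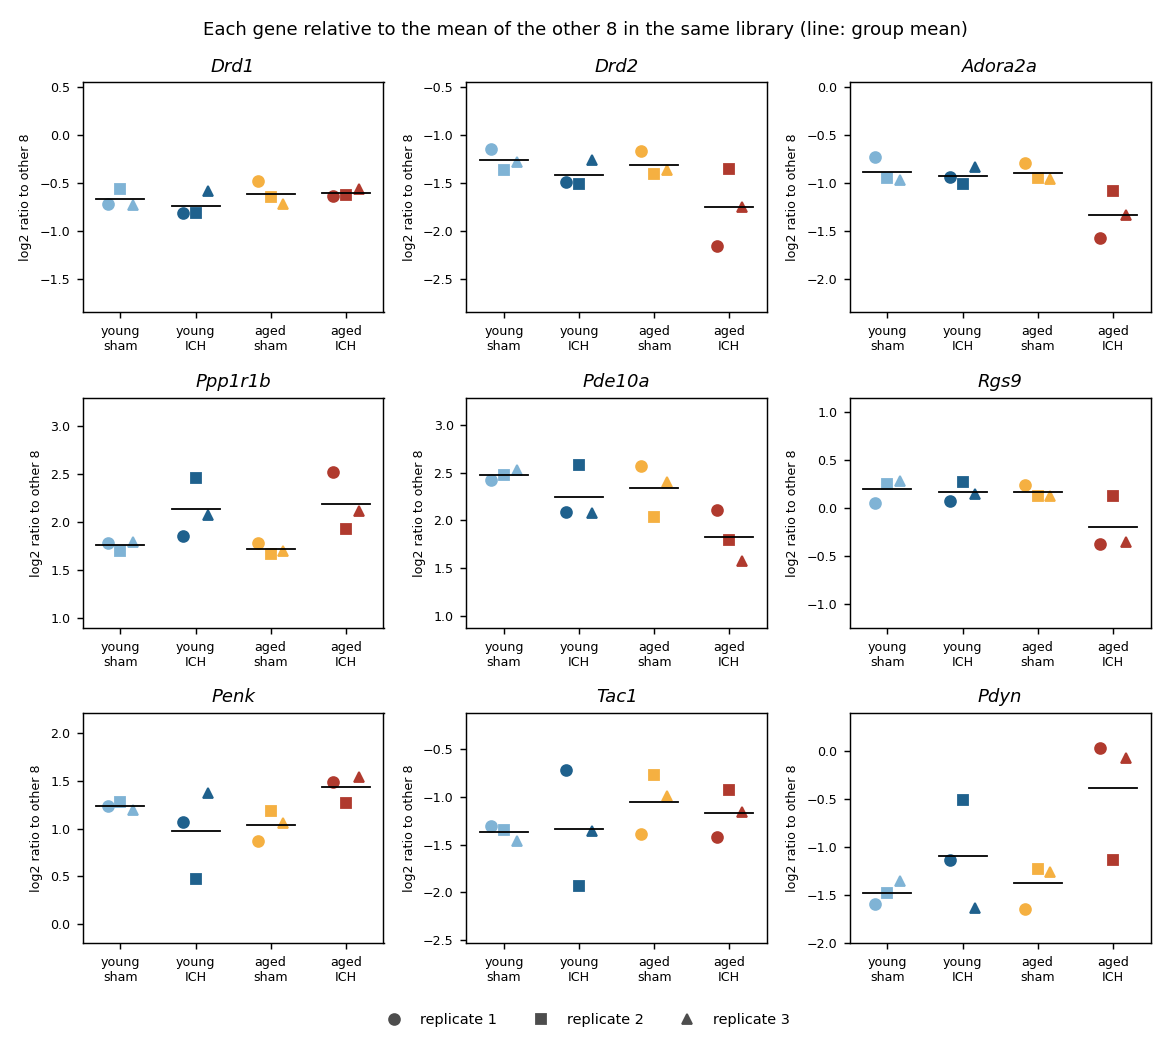
Log2 CPM of each gene minus the mean log2 CPM of the other 8 genes in the same library (y axis, all panels span the same range), by group, with a line at the group mean. *Ppp1r1b* lies higher in each of the 6 ICH libraries (1.86 to 2.52) than in each of the 6 sham libraries (1.66 to 1.79), and *Drd1* stays between −0.82 and −0.48.

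Whether the direct and the indirect class differed was asked with 2 ratios. *Drd1* to *Drd2* was 1.30, 1.64 and 1.41 in young sham, 1.51, 1.54 and 1.51 in young ICH, 1.52, 1.59 and 1.49 in aged sham and 2.55, 1.56 and 2.08 in aged ICH libraries. The high values were those of aged ICH replicates 1 and 3, the aged ICH libraries with the lower levels of both genes. Over both ages the log2 ratio was 0.24 higher after ICH (0.81 against 0.57, exact two-sided permutation test within ages over 400 arrangements, *P* = 0.09, adjusted over the 2 ratios *P* = 0.18, smallest possible 0.005). Leaving out 1 library at a time, the difference ran from 0.15 to 0.33. It became 0.28 (exact permutation, unadjusted *P* = 0.01) without young sham replicate 2 and 0.33 (exact permutation, unadjusted *P* = 0.025) without aged ICH replicate 2. These are the sham library with the highest ratio and the aged ICH library with the lowest, so that taking them out widens the difference by itself. *Tac1* to *Penk* was 0.209, 0.198 and 0.195 in young sham, 0.331, 0.227 and 0.186 in young ICH, 0.249, 0.299 and 0.283 in aged sham and 0.167, 0.258 and 0.19 in aged ICH libraries. Young ICH replicates 1 and 2 lay above the young sham libraries and replicate 3 below them, and aged ICH replicates 1 and 3 lay below the aged sham libraries. The difference of the log2 ratio, ICH minus sham over both ages, was −0.096 (exact permutation *P* = 0.665).

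An effect of age on the 9 genes was not detected with these libraries in the fit without a covariate. Between aged sham and young sham mice the log2FC ran from −0.11 ± 0.63 (*Penk*) to 0.36 ± 0.70 (*Tac1*), and 0 of 9 genes met the criteria, which 3.72% of all genes did in either direction. Between aged ICH and young ICH mice it ran from −0.44 ± 0.52 (*Pde10a*) to 0.41 ± 0.39 (*Pdyn*), with 0 of 9 beside 3.52% of all genes. The difference of the ICH responses, aged minus young, ran from −0.38 ± 0.92 (*Adora2a*) to 0.25 ± 0.55 (*Pdyn*), with 0 of 9 beside 1.56% of all genes. In these 3 comparisons 0 of 9 genes had an unadjusted *P* under 0.05 with edgeR, DESeq2 or limma without a covariate. With the striatal covariate (edgeR) 1, 5 and 3 of 9 did, in the order of the comparisons, and the share of all genes was not computed. In that fit 0 of 9 met the criteria and 0 reached an adjusted *P* under 0.05 in each comparison. Without aged ICH replicate 2, 4 genes (*Drd2*, *Adora2a*, *Pde10a* and *Rgs9*) met the criteria as lower in aged ICH than young ICH mice, beside 2.01% of all genes, and 2 (*Pde10a* and *Rgs9*) for the difference of the responses, beside 1.55% as lower. Without aged ICH replicate 1, *Pdyn* met them as higher in aged ICH mice, beside 1.74% of all genes.

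The genes around these 9 in the same pathways were read in 17 receptor and cAMP signaling genes. Of these, 16 were below 0 in young and 17 in aged mice after ICH, 4 and 6 met the criteria as lower, and 2 at each age passed an adjusted *P* under 0.05, with medians of −0.68 and −0.79. Of all genes tested, 3.49% and 2.82% met the criteria as lower and 9.23% and 6.15% passed the adjusted threshold as lower, and these shares stand beside each list that follows. Each list was also read in a fit scaled to the 10 general neuronal genes, which asks how far a gene differed relative to these. The median of all genes in it was 0.27 and 0.20. In that fit only 238 of the 21495 genes in young and 75 in aged mice passed the adjusted threshold as lower, and 3822 and 1837 as higher. A list gene that did not pass as lower there is therefore like nearly all genes, and these counts stand beside each list too. The 2 receptor and cAMP genes that passed in the first fit were the partners of RGS9, *Gnb5* and the anchoring protein gene *Rgs7bp*. *Gnb5* was at −0.65 ± 0.15 in young and −0.58 ± 0.15 in aged mice (edgeR, adjusted *P* = 0.0109 and 0.0251). *Rgs7bp* was at −0.47 ± 0.11 and −0.65 ± 0.11 (edgeR, adjusted *P* = 0.0128 and 0.00615). With neuronal scaling neither passed at either age (*Gnb5* −0.40 and −0.37, adjusted *P* = 0.138 and 0.217; *Rgs7bp* −0.24 and −0.45, adjusted *P* = 0.209 and 0.0527). Striatal adenylyl cyclase *Adcy5* stood at −0.78 ± 0.43 and −0.90 ± 0.43 and the G protein subunit *Gnal*, which couples receptors to it, at −0.68 ± 0.34 and −0.79 ± 0.34, neither past the adjusted threshold. The phosphodiesterases *Pde1b* (−0.86 ± 0.38 and −0.85 ± 0.38) and *Pde7b* (−0.75 ± 0.36 and −1.05 ± 0.36) were lower by less than *Pde10a* and did not pass it either.

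Of 11 transcription factors of projection neurons, 9 in young and 11 in aged mice were below 0, and 1 at each age, *Foxp1*, passed the adjusted threshold (−0.49 ± 0.15 and −0.52 ± 0.15, adjusted *P* = 0.0416 and 0.0428). The retinoid X receptor *Rxrg* had the lowest log2FC (−1.68 ± 0.61 and −1.54 ± 0.61, adjusted *P* = 0.077 and 0.119). Of 8 other striatum-enriched genes, 8 were below 0 at both ages and *Ppp1r9a*, which encodes the actin-binding protein neurabin, passed (−0.72 ± 0.13 and −0.62 ± 0.13, adjusted *P* = 0.0041 and 0.0122). With neuronal scaling the count was 0 in both lists at both ages, beside 238 (young) and 75 (aged) of all 21495 genes as lower. *Foxp1* was then at −0.24 and −0.32 (adjusted *P* = 0.396 and 0.317) and *Ppp1r9a* at −0.46 and −0.41 (adjusted *P* = 0.0654 and 0.127). The genes that passed in the first fit had SE of 0.11 to 0.15, against 0.39 to 0.71 for the 9 members.

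Enzymes that cut and finish peptide precursors were tested beside the peptide genes. Of 6, 3 fell at both ages, the convertases *Pcsk1* (−1.06 ± 0.20 and −0.74 ± 0.20, adjusted *P* = 0.00486 and 0.0304) and *Pcsk2* (−0.48 ± 0.10 and −0.45 ± 0.10, adjusted *P* = 0.00738 and 0.015) and the amidating enzyme *Pam* (−0.40 ± 0.07 and −0.23 ± 0.07, adjusted *P* = 0.0038 and 0.0487). With neuronal scaling *Pcsk1* passed in young mice (−0.81, adjusted *P* = 0.0172) and not in aged mice (−0.54, adjusted *P* = 0.105). *Pcsk2* (−0.25 at both ages, adjusted *P* = 0.0553 and 0.0755) and *Pam* (−0.16 and −0.035, adjusted *P* = 0.298 and 0.857) did not pass in that fit, while *Pcsk1n*, a convertase inhibitor, passed as higher at both ages (0.67 and 0.68, adjusted *P* = 0.0112 and 0.0173) and *Cpe* in young mice (0.34, adjusted *P* = 0.0442). These genes serve many neurons and not only those of the striatum, and the list was lowest where the 9 genes were highest in 3 of 4 groups. Of the 5 receptors for opioid and tachykinin peptides, all were below 0 at both ages and *Oprd1*, the delta receptor for enkephalin, fell (−0.82 ± 0.11 and −0.62 ± 0.11, adjusted *P* = 0.00176 and 0.00796), in young mice also with neuronal scaling (−0.59, adjusted *P* = 0.0175) and in aged mice not (−0.43, adjusted *P* = 0.0805).

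Markers of other neurons gave the level against which these values stand. Of the 10 general neuronal genes, 2 fell in young mice, *Syt1* (−0.65 ± 0.12, adjusted *P* = 0.00565) and *Map2* (−0.34 ± 0.11, adjusted *P* = 0.0499), and in aged mice *Syt1* had the lowest adjusted *P* of the list (0.051), with medians of −0.19 at both ages. All 3 GABAergic genes were below 0 at both ages, with medians of −0.54 and −0.64, and 1 passed the adjusted threshold at each age. This was *Gad1*, the GABA-synthesizing enzyme (log2FC −0.62 ± 0.13 and −0.64 ± 0.13, adjusted *P* = 0.00711 and 0.0104), while *Gad2* and *Slc32a1* did not pass. Of 9 interneuron markers, *Sst* (−0.56 ± 0.12 and −0.46 ± 0.12, adjusted *P* = 0.0094 and 0.0296) and *Lhx6* (−0.41 ± 0.12 and −0.52 ± 0.12, adjusted *P* = 0.0399 and 0.0196) fell. Of 9 cortical genes *Nrn1* alone passed (−0.65 ± 0.14 and −0.49 ± 0.14, adjusted *P* = 0.00808 and 0.0356), with medians of −0.52 and −0.18 over the list, and of the 4 thalamic genes *Tnnt1* in young mice had the lowest adjusted *P* (2.62 ± 0.85, adjusted *P* = 0.0513), as higher after ICH. With neuronal scaling *Gad1* (−0.38 and −0.44, adjusted *P* = 0.169 and 0.157), *Sst* (−0.30 and −0.26, adjusted *P* = 0.23 and 0.372), *Lhx6* (−0.18 and −0.33, adjusted *P* = 0.342 and 0.124) and *Map2* in young mice (−0.082, adjusted *P* = 0.668) did not pass. *Syt1* (−0.41, adjusted *P* = 0.00777) and *Nrn1* (−0.41, adjusted *P* = 0.0125) passed in young mice, *Nrn1* did not in aged mice (−0.30, adjusted *P* = 0.0651), and *Tnnt1* in young mice passed as higher (2.77, adjusted *P* = 0.0308). *Map2* and *Syt1* are themselves among the 10 genes used for this scaling, which draws their values toward 0, so the fit is no separate check of them.

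Markers of cells other than neurons moved with ICH too. Among the myelin genes, *Mog* (−0.85 ± 0.18, adjusted *P* = 0.0136), *Cnp* (−0.81 ± 0.17, adjusted *P* = 0.0137) and *Mal* (−0.77 ± 0.19, adjusted *P* = 0.0237) fell in aged mice, and 0 of the list passed in young mice. The median log2FC of the list was −0.77 in aged and −0.18 in young mice. These 3 genes did not pass with neuronal scaling (adjusted *P* = 0.0974 to 0.156). Summed over the list, myelin transcripts were at 4915 to 8412 CPM in young sham, 5721 to 7464 in young ICH, 5344 to 6988 in aged sham and 4258 to 4964 in aged ICH libraries. Of 7 myeloid genes, 6 in young and 7 in aged mice passed the adjusted threshold as higher, also with neuronal scaling. Of all 21495 genes tested, 2125 in young and 1505 in aged mice passed as higher, and 3822 and 1837 with neuronal scaling. Of 6 astrocyte genes 3 were higher in young mice, among them *Gfap* (1.33 ± 0.27, adjusted *P* = 0.00705), and 2 were higher and 1 (*Gja1*) lower in aged mice. Of 5 red blood cell genes 3 were higher in young and 0 in aged mice. The part of these cells in the levels of the 9 genes was not tested.

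The 8 genes outside these that resembled them most across the 12 libraries were found by Pearson's r of log2 CPM with the mean of the standardized log2 CPM of the 9 among 12670 genes with a mean of at least 5 CPM, where all genes share the libraries and their normalization. These were *Pde1b* (r = 0.99), *Plppr1* (0.99), *Gpr6* (0.99), *Adcy5* (0.99), *Rarb* (0.99), *Rasgrp2* (0.98), *Klhl13* (0.98) and *Asic4* (0.98). Of the 9 themselves, *Drd1* was closest to their mean (0.997) and *Pdyn* (0.917) and *Pde10a* (0.96) farthest. *Pde1b*, a calcium-dependent phosphodiesterase, ranged from 136.6 to 644.2 CPM over the libraries. *Gpr6*, an orphan receptor of indirect-class neurons, had means of 19.2 CPM in sham and 8.47 in ICH libraries of young mice, and of 17.8 and 7.01 CPM in those of aged mice.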

How the data were processed

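The 12 libraries (4 groups of 3) were assigned by their labels. The authors aligned reads to GRCm38.p6 with Hisat2 and assigned them to genes with FeatureCounts, and the deposited table holds raw counts together with FPKM. FPKM, computed by the authors, are scaled to transcript length and mapped fragments. The strand setting and the treatment of reads with several alignments are not given in the sources used here. Depth (28410896 to 37785160 counts) gave each of the 9 genes at least 197 counts in a library.

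Counts were tested with edgeR 4.0.16 (quasi-likelihood, TMM, R 4.3.3) in one fit of 4 groups on the 21495 genes that passed filterByExpr (minimum count 10), with adjustment over all genes. DEGs had FC > 1.5 or < 0.67 and an unadjusted *P* under 0.05. Log2 CPM used a prior count of 2. DESeq2 1.42.0 and limma 3.58.1 on log2(FPKM + 1) were alternatives, with the others given at the end. Scripts were tested on simulated data. Named genes were the 9, members of the lists discussed, and the 8 most alike, and the members and lists were chosen with earlier results of these data known. RefSeq promoter windows were searched on both strands.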

Additional observations from a re-analysis of the deposited data

How the results depend on the processing

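The SE of the 9 genes rested on 3 pools per group, with at least 197 counts per gene and library. The number of genes of the 9 that met the criteria after ICH was 1 at each age. In young mice it became 2 with no filter beyond 1 count, 3 in a fit on the 2 groups only, 0 with scaling to 10 general neuronal genes, 0 at an adjusted *P* under 0.05, and, as choices made after seeing the data, 0 with the striatal covariate and 8 without the 3 libraries highest in *Ttr*. In aged mice it became 5 with no filter, 4 with limma on log2(FPKM + 1), 0 at an adjusted *P* under 0.05 and 6 without those 3 libraries, and with the covariate the count of 1 was *Penk* as higher, no longer *Pde10a*. Leaving out 1 library at a time gave 0 to 2 in young and 0 to 8 in aged mice, 0 to 4 for aged ICH vs. young ICH, 0 for aged sham vs. young sham and 0 to 2 for the difference of responses. The cause of these changes was not tested. DESeq2, its size factors and the other settings kept the counts within 1.5 times. Scaling to general neuronal genes moved the median log2FC of all genes to 0.27 in young and 0.20 in aged mice, and the 9 genes stayed below 0.

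With a replicate block the count was 0 in young and 1 in aged mice. Deviations of same-numbered libraries correlated from −0.45 to 0.23, above 0.1 in 5 of 18 pairs, so the numbers did not pair the libraries, and the ratios kept their side of the threshold.

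With the covariate, log2FC changed sign in young mice for *Drd1* (0.22), *Drd2* (0.34), *Adora2a* (0.37), *Ppp1r1b* (0.35), *Rgs9* (0.29), *Penk* (0.14), *Tac1* (0.61) and *Pdyn* (0.063), and in aged mice for *Drd1* (0.25), *Drd2* (0.12), *Adora2a* (0.035), *Ppp1r1b* (0.35), *Penk* (0.66), *Tac1* (0.36) and *Pdyn* (0.43). *Penk* in aged sham vs. young sham became 0.0205 with neuronal scaling. Single libraries turned the small age differences, *Tac1* (−0.051 to 0.69) and *Penk* (−0.43 to 0.18) in sham mice, and *Adora2a* (−1.50 to 0.093) and *Pdyn* (−0.12 to 0.60) for the difference of responses. Without single libraries the *Drd1* to *Drd2* difference ran from 0.15 to 0.33 and that of *Tac1* to *Penk* from −0.21 to −0.0028.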
